A study of Mus musculus with 2 samples.

Results

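The replication-dependent histone genes encode the linker histone H1 and the core histones H2A, H2B, H3 and H4 that package newly made DNA. They were taken as every gene of the deposited matrices whose symbol begins with Hist1h, Hist2h, Hist3h or Hist4h and that held at least 20 unique molecular identifiers (UMIs, 1 per captured transcript) over both matrices. Of 31053 genes, 67 carried such a symbol and 63 were kept: 6 of class H1, 16 of H2A, 16 of H2B, 12 of H3 and 13 of H4. The kept genes nearest the minimum were Hist1h1t and Hist1h2ah with 20 UMIs each and Hist1h4m with 21. Of those left out, Hist2h2aa2 had 3 UMIs, and Hist1h2aa, Hist1h2ba and Hist1h2bq had 0. Hist1h2aa and Hist1h2ba are testis forms of H2A and H2B. The 63 genes lie on chromosome 13 (51 genes), chromosome 3 (9), chromosome 11 (2) and chromosome 6 (1).

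The study profiled single cells from the mammary gland of C57BL/6 mice, sorted as CD24highCD29+, a gate that holds the basal (myoepithelial) layer and its stem cells. One library was labelled Fgd5-ko (its title reads cko, the usual short form of conditional knockout) and 1 was labelled WT. Both were made with the Chromium 3′ V3 kit from polyA RNA. The promoter or Cre behind the knockout, the age and number of the mice, and any pooling of animals are not stated in the labels. With 1 library per label no test between labels was possible. Every interval below is a 95% interval for counting error alone, and every ratio between libraries is the Fgd5-ko library over the WT library.

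The library labelled Fgd5-ko held 8798 barcodes and 136697801 UMIs, against 10735 barcodes and 60566053 UMIs in the WT library. The authors' deposited cell table listed 6064 cells in the Fgd5-ko library, with a median of 15712 UMIs, and 6588 in the WT library, with a median of 4954. Clusters made without the histone genes put 6009 (99.1%) of the Fgd5-ko cells and 6308 (95.7%) of the WT cells in a basal-like class. All 10 basal markers were detected in both libraries and summed to 17328 CPM (UMIs of the genes per 1e6 UMIs of the cells) in Fgd5-ko basal-like cells and 25497 CPM in WT ones. Different clusters made up the class in each library: clusters 2, 3, 4, 5, 8, 9 and 12 held nearly all of the Fgd5-ko cells, and clusters 0, 1, 6, 7, 10, 11 and 13 nearly all of the WT cells. The libraries shared 34 barcode sequences, 18 of them among listed cells. Fgd5 itself was counted at 4.08 CPM (421 UMIs, 3.70 to 4.49) in Fgd5-ko basal-like cells and 0.768 CPM (27 UMIs, 0.506 to 1.12) in WT ones, a log2 ratio of 2.41 (1.85 to 3.03), which goes against the label. A 3′ tag outside a deleted exon does not check a deletion, so the words Fgd5-ko below stand for the library labelled Fgd5-ko. Whether the labels of the libraries are exchanged cannot be told from these files, and an exchange would turn the sign of every library ratio.

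Replication-dependent histone mRNAs are made in bulk while DNA is copied and are removed when copying ends. They have no introns, and most end a few bases after a stem-loop that the stem-loop binding protein SLBP holds, in place of a poly(A) tail. The same genes can also give longer, polyadenylated transcripts, a form described in differentiated and non-dividing cells. A library primed on poly(A) therefore counts a portion of the histone mRNA of a cell, and the levels below are levels of what such a library captured.

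In the GENCODE M21 transcripts (GRCm38), all 63 genes were found and 60 had a single exon. A stem-loop of 16 bases, with a stem of 6 base pairs and a loop of 4 bases, stood in the annotated transcript of 43 genes. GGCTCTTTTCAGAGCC was the form in 25 genes of classes H1, H2A, H2B and H3, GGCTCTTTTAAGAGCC in 6 of H1, H2B and H3, and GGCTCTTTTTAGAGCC in 1 H2A gene. The H4 genes carried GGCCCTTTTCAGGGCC (7 genes), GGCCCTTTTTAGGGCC (2) or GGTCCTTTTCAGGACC (2). The sites of 8 genes described below follow, shown because the annotated ends of these genes are compared with their counts further on; capitals mark the stem-loop and 5 bases stand on either side, with GRCm38 coordinates.
Hist1h1e, chr13:23621777-23621802, minus strand: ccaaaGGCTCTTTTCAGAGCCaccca
Hist1h1c, chr13:23739507-23739532, plus strand: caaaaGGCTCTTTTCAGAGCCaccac
Hist1h2ae, chr13:23570663-23570688, minus strand: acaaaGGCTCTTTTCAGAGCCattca
Hist3h2a, chr11:58955167-58955192, plus strand: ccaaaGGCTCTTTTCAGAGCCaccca
Hist1h3c, chr13:23745042-23745067, minus strand: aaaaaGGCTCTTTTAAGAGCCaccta
Hist2h2ac, chr3:96220413-96220438, minus strand: aaaaaGGCTCTTTTTAGAGCCaccaa
Hist1h4d, chr13:23581945-23581970, plus strand: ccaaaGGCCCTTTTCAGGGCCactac
Hist1h4b, chr13:23757361-23757386, plus strand: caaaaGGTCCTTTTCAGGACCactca
The stem and loop were the same letters in Hist1h1e, Hist1h1c, Hist1h2ae and Hist3h2a, 4 genes with unlike counts across cells. In 21 of the 43 genes the annotated transcript ended within 100 bases after the stem-loop. In the other 22 it ran past that, by 1153 bases in Hist1h1e, 840 in Hist1h1c, 151 in Hist1h2ae and 1643 in Hist3h2a.

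Promoters were read for 58 of the 63 genes from RefSeq (GRCm38.p6), as 250 bases before to 50 after the start. CCAAT, on either strand, was in 49 of the 58 (84.5%), against 37.9% of 27025 promoters of the same length. It was in every H1, H2A, H2B and H3 promoter read and in 3 of 12 H4 promoters. TATAAA, on either strand, was in 33 (56.9%), against 14.2% of all promoters. AAACACA, the H1 box, was in 5 of 6 H1 promoters (7.14% of all), and the octamer ATTTGCAT in 6 of 16 H2A and 5 of 14 H2B promoters (1.75% of all). All motifs were searched on both strands, and matches of different motifs may overlap. In 8 pairs an H2A and an H2B gene on opposite strands shared 233 to 279 bases of their windows, Hist1h2ae with Hist1h2bg and Hist1h2ap with Hist1h2br among them. The 200 bases before the start of 3 of the most counted genes are shown, since these genes had a high ratio (Hist1h1b, Hist1h3c) and a low one (Hist1h1c) between the libraries; capitals mark the CCAAT box, the TATA box and the H1 box on either strand.
Hist1h1b, chr13:21780626-21780825, minus strand: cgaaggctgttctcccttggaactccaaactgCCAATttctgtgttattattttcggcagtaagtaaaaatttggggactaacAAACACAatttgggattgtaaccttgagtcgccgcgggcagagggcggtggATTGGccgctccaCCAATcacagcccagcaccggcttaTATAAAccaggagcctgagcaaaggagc
Hist1h1c, chr13:23738607-23738806, plus strand: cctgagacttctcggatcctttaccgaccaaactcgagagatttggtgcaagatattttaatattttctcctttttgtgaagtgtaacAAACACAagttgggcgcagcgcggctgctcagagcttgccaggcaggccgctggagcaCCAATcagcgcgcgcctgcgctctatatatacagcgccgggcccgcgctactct
Hist1h3c, chr13:23745522-23745721, minus strand: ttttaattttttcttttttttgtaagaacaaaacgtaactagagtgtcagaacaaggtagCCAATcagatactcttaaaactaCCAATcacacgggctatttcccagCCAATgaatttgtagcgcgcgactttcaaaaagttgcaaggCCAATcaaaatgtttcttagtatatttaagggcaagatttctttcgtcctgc
The H1 box stood in both linker histone stretches, and the Hist1h3c stretch held CCAAT 4 times and no TATAAA. A match of letters describes the window and says nothing of binding.

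In basal-like cells the histone genes together were captured at 1242 CPM (128225 UMIs) in Fgd5-ko and 249 CPM (8762 UMIs) in WT, a log2 ratio of 2.32 (2.29 to 2.35). Classes H3 and H1 had the highest ratios and H2B the lowest. H3 summed to 167 CPM in Fgd5-ko and 11.3 in WT (log2 3.89), and H1 to 567 and 62.1 CPM (log2 3.19, 3.13 to 3.25). The H2A genes, which pair with H2B in the nucleosome, summed to 264 CPM in Fgd5-ko and 68.1 in WT (log2 1.95), and the H4 genes to 116 and 36.0 (log2 1.68). H2B summed to 129 CPM in Fgd5-ko and 71.7 in WT (log2 0.84). The make-up of the histone counts therefore differed: H1 gave 45.6% of them in Fgd5-ko and 24.9% in WT, and H2B gave 10.4% in Fgd5-ko and 28.8% in WT. In Fgd5-ko, Hist1h1b, Hist1h1e, Hist1h3c and Hist1h1c held 49.6% of the histone UMIs. In WT the leading 4 were Hist1h2bc, Hist1h1c, Hist1h2ae and Hist1h1e, with 52.2%. These are shares of UMIs, which tag a transcript once at its 3′ end and were not divided by length.

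**Figure D1:**
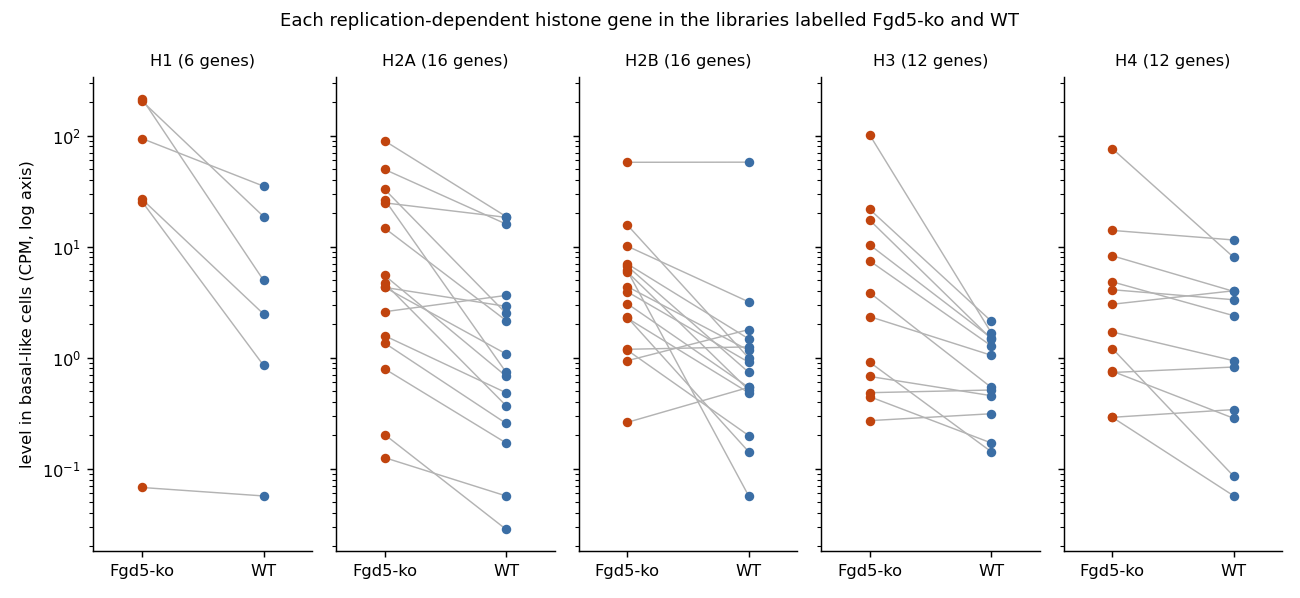
Level of each histone gene in basal-like cells, in CPM on a log axis, 1 panel per class, Fgd5-ko left and WT right, with a line joining the 2 values of a gene; 62 genes with UMIs in both libraries are shown. Most lines run down toward WT, steeply for Hist1h3c (101 and 1.68 CPM) and Hist1h1b (215 and 4.98 CPM), while the line of Hist1h2bc, the top one in the H2B panel, is level (57.6 and 57.7 CPM).

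A gene was called when its ratio passed 1.5-fold and it had at least 20 UMIs in the cells compared. Of the 60 histone genes that could be called, 45 were higher in Fgd5-ko, where 26.7% of 15044 genes were, and 2 were lower, where 10.4% of all genes were; 13 lay between. Their median log2 ratio was 2.24, beside 0.24 over all genes. Hist1h1t, Hist1h2ah and Hist1h4m had too few UMIs in basal-like cells. The G2/M list of 38 mitotic genes summed to a log2 ratio of 2.63 and the S list of 37 replication genes to 1.22 in the same cells. Genes of dividing cells were thus also higher in Fgd5-ko, and the histone ratio is given by state below.

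All 5 linker histone genes that could be called were higher in Fgd5-ko, where 26.7% of all genes were. Linker histones bind the DNA that enters and leaves the nucleosome. Hist1h1b was captured at 215 CPM in Fgd5-ko and 4.98 in WT (log2 5.44, 5.22 to 5.66), and Hist1h1a at 25.5 and 0.853 CPM (log2 4.90). Hist1h1e stood at 205 CPM in Fgd5-ko and 18.7 in WT (log2 3.45, 3.34 to 3.57), and Hist1h1d at 26.8 and 2.47 (log2 3.44). Hist1h1c, the most counted linker histone of the WT library, stood at 94.2 CPM in Fgd5-ko and 35.1 in WT (log2 1.42, 1.34 to 1.51). The order of the genes thus differed, with Hist1h1b first of the class in Fgd5-ko and Hist1h1c first in WT. Hist1h1t, the testis form, had 7 UMIs in Fgd5-ko and 2 in WT.

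Of 16 H2A genes, 12 were called higher, where 26.7% of all genes were, 3 lay between and 1 had too few UMIs. Among H2A genes with at least 1000 UMIs, Hist1h2ab had the highest ratio, with 26.6 CPM in Fgd5-ko and 0.739 in WT (log2 5.17). Hist1h2an followed at 32.9 and 2.50 CPM (log2 3.72) and Hist2h2ac at 14.7 and 2.16 (log2 2.77). The most counted H2A genes had lower ratios than these. Hist1h2ae stood at 89.8 CPM in Fgd5-ko and 18.7 in WT (log2 2.26, 2.15 to 2.38), and Hist1h2ap at 49.7 and 15.98 (log2 1.64). Hist3h2a, 1 of the 2 genes on chromosome 11, stood at 24.8 CPM in Fgd5-ko and 18.4 in WT (log2 0.43, 0.31 to 0.56), under 1.5-fold. Hist2h2aa1 was the lowest of the class, at 2.60 CPM in Fgd5-ko and 3.64 in WT (log2 -0.49).

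Of 16 H2B genes, 12 were called higher and 2 lower, where 26.7% and 10.4% of all genes were. Hist1h2bc, the most counted histone gene of WT, stood at 57.6 CPM in Fgd5-ko and 57.7 in WT (log2 -0.00, -0.08 to 0.07). Hist2h2bb stood at 15.7 CPM in Fgd5-ko and 0.995 in WT (log2 3.98) and Hist1h2be at 10.1 and 3.19 (log2 1.67). Hist1h2bl had 631 UMIs in Fgd5-ko and 2 in WT, the highest ratio of all members and one set by a very small count (log2 6.75, 4.89 to 9.80). Hist3h2ba, on chromosome 11 like Hist3h2a, was lower in Fgd5-ko, at 0.939 CPM against 1.79 in WT (log2 -0.93, -1.40 to -0.45). The other lower gene, Hist2h2be, named after its values were seen, had 27 UMIs (0.261 CPM) in Fgd5-ko and 19 (0.540 CPM) in WT (log2 -1.05, -1.95 to -0.12).

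Of 12 H3 genes, 9 were called higher, where 26.7% of all genes were, and 3 lay between. Hist1h3c held 10451 of the 17242 H3 UMIs in Fgd5-ko and 59 of 396 in WT, where Hist1h3e had 75. Hist1h3c stood at 101 CPM in Fgd5-ko and 1.68 in WT (log2 5.91, 5.55 to 6.31). Hist1h3e followed at 21.7 CPM in Fgd5-ko and 2.13 in WT (log2 3.34), Hist1h3i at 17.3 and 1.48 (log2 3.55) and Hist1h3f at 10.4 and 1.51 (log2 2.78). Hist1h3d had the lowest ratio among H3 genes with 100 or more UMIs, at 2.34 CPM in Fgd5-ko and 1.05 in WT (log2 1.16, 0.65 to 1.70).

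The H4 genes were split, with 7 of 13 higher, where 26.7% of all genes were, 5 between and 1 under the minimum. H4 is the partner of H3 in the nucleosome core, and its class median log2 ratio of 0.94 stood beside 2.61 for H3. Hist1h4d held 7880 of the 11931 H4 UMIs in Fgd5-ko and 281 of 1265 in WT, where Hist1h4h was counted more (404 UMIs). Hist1h4d stood at 76.3 CPM in Fgd5-ko and 7.99 in WT (log2 3.26, 3.08 to 3.43), and Hist1h4b had the highest ratio at 1.21 and 0.0853 CPM (log2 3.83, 2.25 to 6.12), with 3 UMIs in WT. Hist1h4h stood at 14.0 CPM in Fgd5-ko and 11.5 in WT (log2 0.29; -0.59 in cells of 4000 to 12000 UMIs and -0.79 without the cells high in mitotic genes described below). Hist4h4, the only member on chromosome 6, stood at 3.03 CPM in Fgd5-ko and 4.01 in WT (log2 -0.40). Hist1h4m, named after its values were seen, had 0 UMIs in Fgd5-ko basal-like cells, which allows up to 0.0291 CPM, and 10 UMIs (0.284 CPM) in WT. Many histone genes are close copies of each other, and no label or header says how reads shared by copies were counted, so the split of UMIs between copies of a class is less certain than the class sum.

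The histone counts were next placed by cell-cycle genes. Each basal-like cell was thinned to 2000 UMIs, and the lists were read in the thinned cell. Cells with at least 3 UMIs of the G2/M list (mitotic genes such as Mki67 and Top2a) were called G2/M-list cells, and were divided into those that also held at least 3 UMIs of the S list (replication genes such as Mcm2 and Pcna), called both-lists cells, and those that did not. Cells with at least 3 UMIs of the S list alone were called S-list cells, and all others remaining cells. No histone gene was used. Both-lists cells made up 5.11% (307) of Fgd5-ko cells and 0.656% (41) of WT cells, cells with the G2/M list alone 5.04% and 1.10%, S-list cells 5.82% and 1.81%, and remaining cells 84.0% and 96.4%. In the WT library 61 cells under 2000 UMIs were left out. The states are ranges on a count: 119 Fgd5-ko and 29 WT cells held 2 UMIs of the G2/M list, just under its minimum, and 58 and 18 held 3.

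In both libraries the histone genes were captured most in both-lists cells, at 9893 CPM in Fgd5-ko and 3562 CPM in WT, against 331 CPM in Fgd5-ko and 186 CPM in WT remaining cells. That is a log2 difference between states of 4.90 in Fgd5-ko and 4.26 in WT. Cells with the G2/M list alone held less, 2554 CPM in Fgd5-ko and 1609 in WT. S-list cells stood near the remaining cells, at 440 CPM in Fgd5-ko and 260 in WT, log2 0.41 and 0.48 over remaining cells, values that were 0.13 and 0.27 when the thinning was drawn again. The both-lists cells, 5.11% of Fgd5-ko cells, held 63.3% of that library's histone UMIs, and in WT 0.656% of cells held 15.95%. Both-lists cells were also deeper, with a median of 27527 UMIs beside 14890 in remaining cells in Fgd5-ko and 10879 beside 4924.5 in WT. No doublet caller was run, the labels do not say whether any were removed before deposit, and their part was not tested. In both-lists cells the 10 luminal progenitor markers summed to 37.1 CPM in Fgd5-ko and 128 in WT (50 UMIs in WT). The 8 myeloid markers summed to 3.17 and 79.3 CPM (31 UMIs in WT). Other marker lists went either way there. Fibroblast markers were at 374 CPM in Fgd5-ko and 496 in WT. Endothelial markers were at 21.6 and 10.2 CPM, and T and NK markers at 32.3 and 10.2 (4 UMIs each in WT). In remaining cells the luminal progenitor markers were at 25.3 and 42.2 CPM, and the myeloid ones at 4.97 and 23.0.

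**Figure D2:**
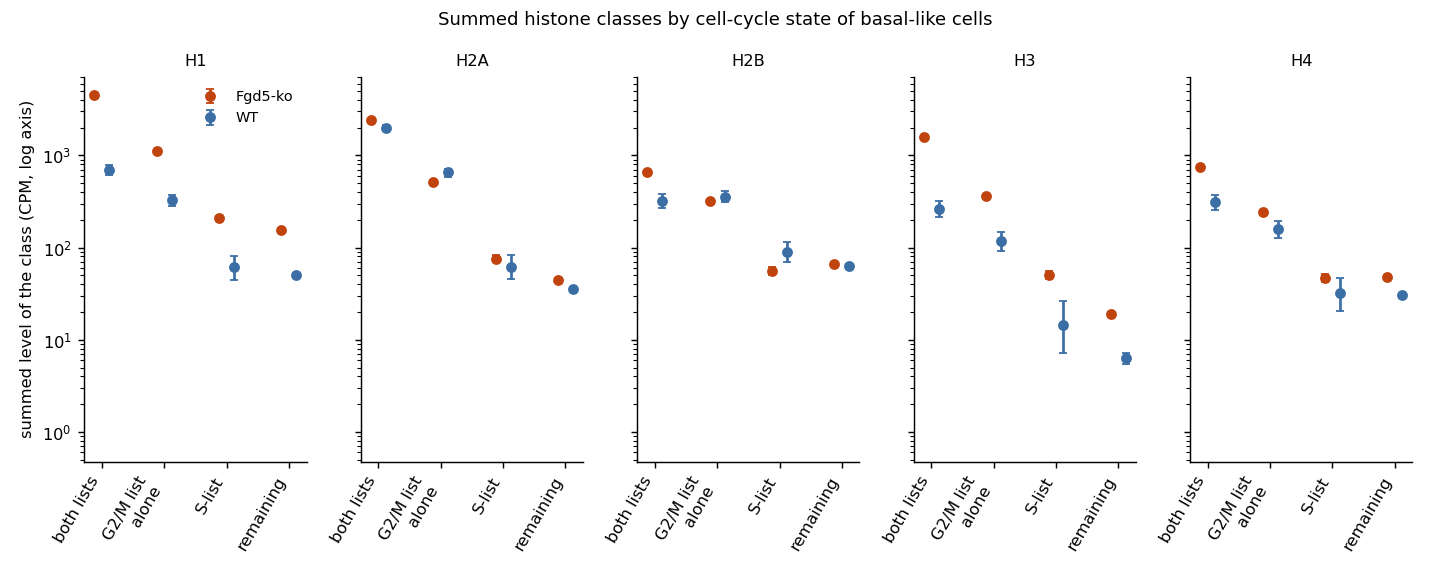
Summed level of each histone class in each cell-cycle state of basal-like cells, in CPM on a log axis, Fgd5-ko left of WT, with exact Poisson intervals. Both-lists cells stand highest in each class and library except H2B in WT (320 CPM, beside 356 CPM in cells with the G2/M list alone); H1 reached 4511 CPM in Fgd5-ko and 695 CPM in WT there, while H2A reached 2395 and 1976 CPM.

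Gene by gene, both-lists cells were set against remaining cells of the same library. Of 59 genes that could be called in Fgd5-ko, 56 were at least 1.5-fold higher in both-lists than in remaining cells, where 16.9% of all genes were, and none was lower, where 12.6% of all genes were; the median log2 difference was 5.15, beside 0.03 over all genes. In WT 34 of 36 were higher, where 39.9% of all genes were, and 1 was lower, where 17.2% were, with a median of 4.42 beside 0.33. Hist1h3c was at 1027 CPM in both-lists and 3.81 in remaining Fgd5-ko cells, and at 86.9 and 0.180 CPM in WT. Hist1h1b was at 2225 and 9.004 CPM in Fgd5-ko and 238 and 1.05 CPM in WT, in the same order of states. Hist1h1e and Hist1h1c followed the state less. Hist1h1e was at 1419 CPM in both-lists and 76.8 in remaining Fgd5-ko cells (258 and 14.2 in WT), and Hist1h1c at 357 and 62.7 CPM (92.0 and 32.9 in WT). In WT Hist1h1c was higher in cells with the G2/M list alone (126 CPM) than in both-lists cells.

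The genes that were not higher in both-lists cells were Hist1h2bc and Hist3h2a in both libraries, and Hist2h2be in Fgd5-ko. Hist1h2bc was at 57.1 CPM in both-lists and 52.8 in remaining Fgd5-ko cells, and at 61.4 and 54.4 in WT; it was highest in cells with the G2/M list alone, at 143 CPM in Fgd5-ko and 228 in WT. Hist3h2a was at 25.6 CPM in both-lists and 25.3 in remaining Fgd5-ko cells. In WT it was at 5.11 and 18.5 CPM, with 2 UMIs behind the first value (log2 -1.86, -4.91 to 0.00). In S-list cells 25 of 49 genes were higher than in remaining cells in Fgd5-ko, where 11.2% of all genes were, and 11 were lower, where 8.19% were. In WT 18 of 30 were higher, where 22.4% of all genes were, and 3 lower, where 12.7% were.

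**Figure D3:**
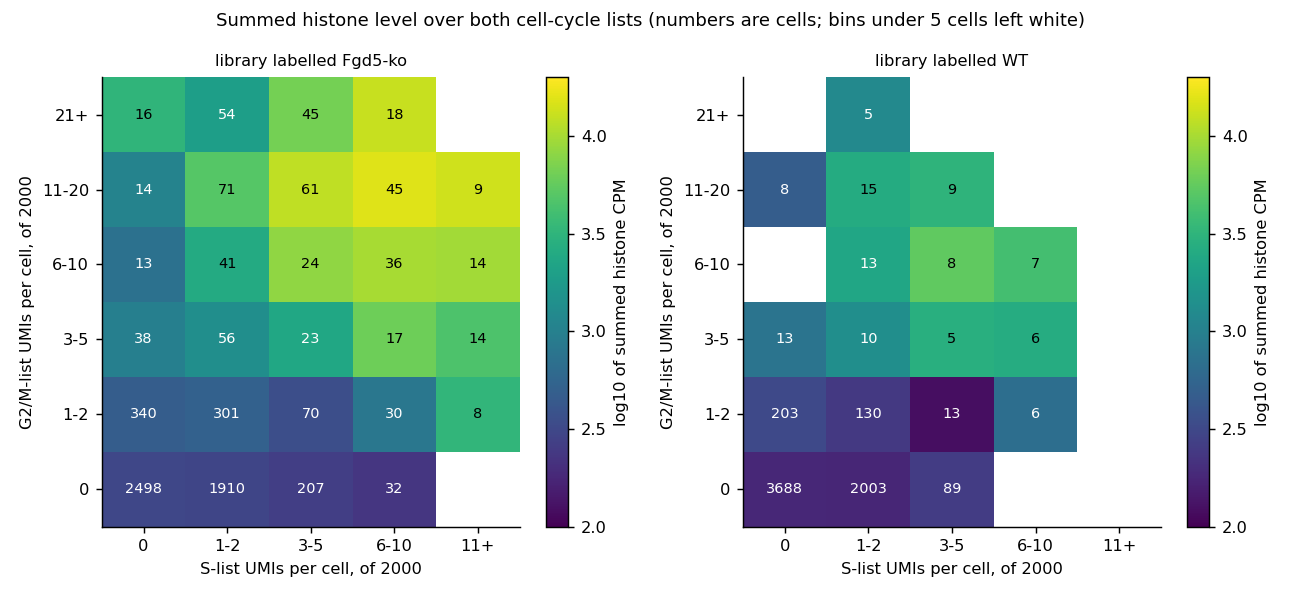
Histone level of basal-like cells by the number of G2/M-list UMIs (rows) and S-list UMIs (columns) in the cell thinned to 2000 UMIs, Fgd5-ko left and WT right, colour showing log10 CPM; bins under 5 cells are white. Numbers are cells. The row of 0 G2/M-list UMIs is low whatever the S-list count, and the highest bin of each library combines both lists, at 15399 CPM in Fgd5-ko (11 to 20 G2/M and 6 to 10 S UMIs, 45 cells) and 5432 CPM in WT (6 to 10 G2/M and 3 to 5 S UMIs, 8 cells).

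Cells with no UMI of either list held 306 CPM of histone transcripts in Fgd5-ko (2498 cells) and 180 in WT (3688 cells). Fgd5-ko cells with 6 to 10 S-list and 0 G2/M-list UMIs held 229 CPM (32 cells). At the other end, Fgd5-ko cells with 21 or more G2/M-list and 1 to 2 S-list UMIs held 1933 CPM (54 cells), below the bins with 3 or more S-list UMIs at the same G2/M-list count and also below the 3188 CPM of the 16 cells with 0 S-list UMIs there.

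Counted per cell, histone transcripts were concentrated in few cells. The top 5% of cells held 74.7% of the histone UMIs in Fgd5-ko and 44.8% in WT; the richest cell had 1074 in Fgd5-ko and 131 in WT, and the median cell 4 and 1. After thinning to 2000 UMIs, 45.2% of Fgd5-ko and 28.9% of WT basal-like cells had at least 1 histone UMI (92.3% and 52.1% before thinning). The same share was 38.9% and 31.5% in fibroblast-like barcodes (median 12575 and 6535.5 UMIs) and 50% and 45.9% in endothelial-like barcodes (7750 and 3690 UMIs), so a share at 1 UMI did not set basal-like cells apart. At least 5 UMIs were found in 5.33% of Fgd5-ko and 0.768% of WT basal-like cells (46.0% and 4.47% before thinning), beside 1.45% and 0.332% of fibroblast-like barcodes and, in endothelial-like ones, 0 of 198 (which allows up to 1.52%) in Fgd5-ko and 0.627% in WT. At least 20 were found in 166 Fgd5-ko cells (2.76%) and in 0 of 6247 WT cells, which allows a share of up to 0.048%. Of those 166 cells, 87.3% were both-lists and 98.2% G2/M-list cells.

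The libraries were then compared within a state, which lessens but does not remove the unequal share of dividing cells. A state is a range, and the libraries filled it differently. Of both-lists cells, 45 of 307 in Fgd5-ko and 1 of 41 in WT held 11 to 20 G2/M-list and 6 to 10 S-list UMIs. Among remaining cells, 340 of 5049 in Fgd5-ko and 203 of 6024 in WT held 1 to 2 G2/M-list and 0 S-list UMIs. Those cells stood at 478 CPM in Fgd5-ko and 319 in WT. In both-lists cells the sum was still higher in Fgd5-ko (log2 1.47, 1.397 to 1.551), and in remaining cells as well (331 and 186 CPM, log2 0.83, 0.79 to 0.87). In S-list cells it was 440 CPM in Fgd5-ko and 260 in WT (log2 0.76, 0.55 to 0.98), but the sign was the opposite one in S-list cells of 4000 to 12000 UMIs (log2 -0.39). In cells with the G2/M list alone the sum was 2554 CPM in Fgd5-ko and 1609 in WT (log2 0.67, 0.57 to 0.76), with H2A at 514 and 651 CPM (log2 -0.34). In such cells of 4000 to 12000 UMIs the sum had the opposite sign, at 1149 CPM in Fgd5-ko (21 cells) and 1583 in WT (53 cells), log2 -0.46 (-0.68 to -0.25). The size of the difference varied by class. In both-lists cells H1 was at 4511 CPM in Fgd5-ko and 695 in WT (log2 2.70) and H3 at 1579 and 261 (log2 2.60). H4 was at 747 and 309 CPM (log2 1.27) and H2B at 662 and 320 (log2 1.05). H2A, at 2395 CPM in Fgd5-ko and 1976 in WT (log2 0.28), was nearly level. H1 thus made up 45.6% of the histone UMIs of both-lists cells in Fgd5-ko and 19.5% in WT, and H2A 24.2% and 55.5%. In remaining cells the levels were lower, with H1 at 154 CPM in Fgd5-ko and 50.1 in WT (log2 1.62), H3 at 18.8 and 6.30 (log2 1.58), H4 at 47.4 and 30.5 (log2 0.64), H2A at 44.7 and 35.4 (log2 0.34) and H2B at 65.8 and 63.4 (log2 0.05, -0.02 to 0.13).

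Without G2/M-list cells, 29 of 53 genes were higher in Fgd5-ko and 7 lower, where 25.6% and 10.2% of all genes were. By state, 32 of 53 were higher and 5 lower in both-lists cells of Fgd5-ko, where 28.1% and 18% of all genes were. In remaining cells 28 of 50 were higher and 8 lower, where 25.2% and 10.3% of all genes were. All 5 H1 genes were higher in each of these states. Hist1h1e kept nearly the same ratio, log2 2.46 in both-lists and 2.44 in remaining cells, and so did Hist1h1b (3.23 and 3.10). The other H1 genes had lower ratios in remaining cells. Hist1h1c had 1.95 in both-lists and 0.93 in remaining cells, Hist1h1a 3.10 and 2.16, and Hist1h1d 1.69 and 1.29. Hist1h3c had log2 3.56 in both-lists cells and 4.404 in remaining cells, where WT had 6 UMIs. The abundant H2A genes did not share this: Hist1h2ae was at 936 CPM in Fgd5-ko and 869 in WT both-lists cells (log2 0.11, -0.05 to 0.27). Hist1h2ap was lower in Fgd5-ko there, at 512 against 749 CPM in WT (log2 -0.55, -0.72 to -0.37). Hist1h4d, in contrast, was at 557 CPM in Fgd5-ko and 123 in WT (log2 2.18, 1.77 to 2.62).

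Depth differed between the libraries, so cells of 4000 to 12000 UMIs were also compared (1562 in Fgd5-ko, 4417 in WT). This range kept 30 of the 610 G2/M-list cells of Fgd5-ko and 70 of the 110 of WT. It thus changed the mix of states as well as the depth, and these cannot be told apart here. There the histone sum was 343 CPM in Fgd5-ko and 220 in WT (log2 0.64, 0.59 to 0.70). H1 was at 170 and 56.8 CPM (log2 1.58), H3 at 23.0 and 9.30 (log2 1.31) and H4 at 57.1 and 32.3 (log2 0.82). H2A was level at 51.2 CPM in Fgd5-ko and 50.8 in WT (log2 0.01, -0.12 to 0.14), and H2B was lower, at 42.6 against 70.5 (log2 -0.73). Of 39 genes 16 were higher, where 23.6% of all genes were, and 14 lower, where 10.8% were, so the share of higher genes stood nearer to that of all genes than before. Hist1h1b (log2 2.65), Hist1h1e (2.54), Hist1h3c (3.03), Hist1h4d (2.49), Hist2h2bb (2.56) and Hist1h2ab (2.75) stayed higher in Fgd5-ko, while Hist1h2ae (-0.77), Hist1h2ap (-1.22), Hist1h2bc (-1.07) and Hist1h3d (-1.20) were lower. The both-lists cells within this window numbered 9 in Fgd5-ko and 17 in WT, at 6624 and 2414 CPM. Over 4 equal groups of each library's cells by UMI count the log2 ratio of the sum was 0.80, 1.10, 1.75 and 2.76 from the shallowest to the deepest. The groups were cut within each library (basal-like medians 15739 UMIs in Fgd5-ko and 4935.5 in WT), so they do not pair cells of like depth. G2/M-list cells were deep, with medians of 24757 UMIs in Fgd5-ko and 9201.5 in WT, and their part in this rise was not tested.

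**Figure D4:**
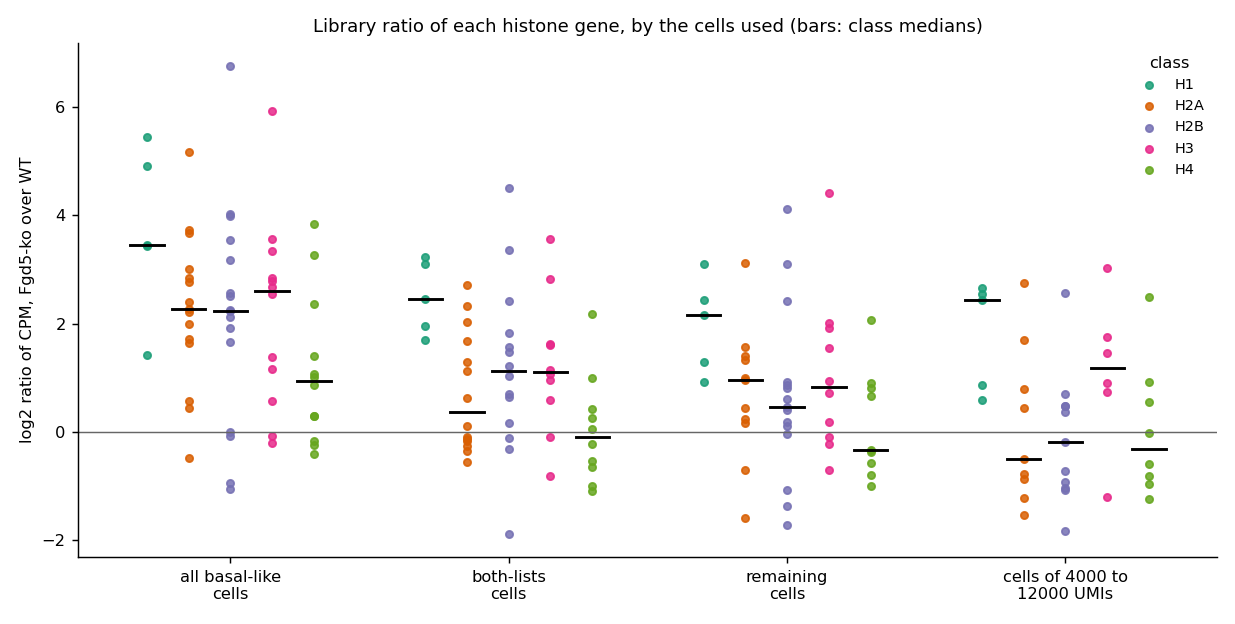
Log2 ratio of Fgd5-ko over WT for each histone gene with at least 20 UMIs in the cells used, by class, in all basal-like cells, both-lists cells, remaining cells and cells of 4000 to 12000 UMIs; bars are class medians. H1 genes lie above 0 in each panel, whereas H2A, H2B, H3 and H4 genes lie on both sides of 0 in each panel.

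The annotated ends were set beside these patterns. The 20 genes with a transcript model that ends within 100 bases of the stem-loop, and enough UMIs, had a median log2 difference between G2/M-list and remaining cells of 5.44 in Fgd5-ko, and 11 such genes had 5.38 in WT. Genes whose model holds no stem-loop had 5.16 (19 genes) and 4.72 (9 genes). Genes whose model runs past the stem-loop with no AATAAA, the polyadenylation signal, in its last 50 bases had 3.89 (13 genes) and 3.95 (11 genes). Those that run past it and hold AATAAA there had 1.76 (8 genes) and 1.77 (7 genes), the smallest difference of the 4 groups in both libraries. Remaining cells held 7.94% of the UMIs of the first group in Fgd5-ko and 50.6% in WT, and 15.5% and 78.3% of those of genes with no stem-loop. They held 26.9% and 70.1% of the UMIs of genes that run past it with no AATAAA, and 36.0% and 75.3% of those of the last group. The highest share was thus in the last group in Fgd5-ko and in the group with no stem-loop in WT. The share of the group with no stem-loop rested mostly on 1 gene. Hist1h2bc held 1811 of its 2084 remaining-cell UMIs in WT and 4291 of 6360 in Fgd5-ko. Hist1h1c, Hist3h2a, Hist3h2ba and Hist4h4 belong to the last group, and so does Hist1h2ae, which followed the state. Hist1h2bc, which did not, has a model of 1156 bases in 2 exons with no stem-loop. Short models with none, such as the 381 bases of Hist2h2bb, may simply stop short. Whether that of Hist1h2bc does was not tested. The reads were not used here, so which end was captured is not known.

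**Figure D5:**
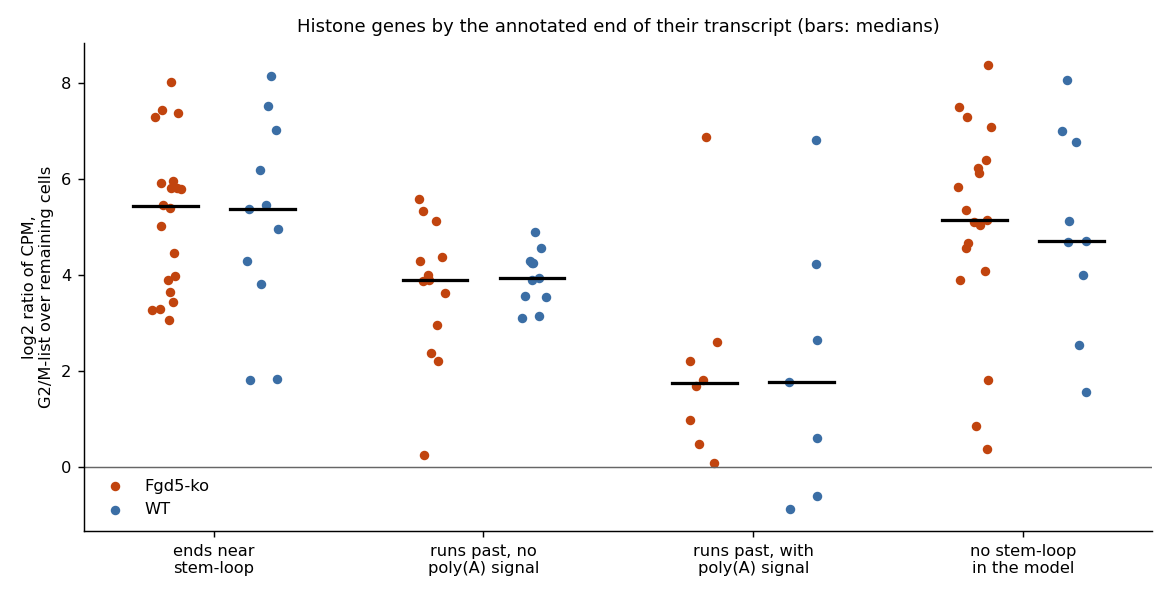
Log2 difference between G2/M-list and remaining basal-like cells for each histone gene, grouped by the end of its annotated transcript, Fgd5-ko left of WT, bars showing medians. Genes that end near the stem-loop centre on 5.44 and 5.38, and genes that run past it to an AATAAA on 1.76 and 1.77, with a wide spread within each group.

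Barcodes outside the authors' table held further basal-like cells and other cell types of the gland. In the basal-like ones the histone sum was 2772 CPM in Fgd5-ko (391 barcodes) and 1105 in WT (198), a log2 ratio of 1.33 (1.28 to 1.38) beside 2.32 in the listed cells. H1 had log2 2.52 there, H3 2.41 and H2A 0.23, and the G2/M list summed to 2861 CPM in Fgd5-ko and 1605 in WT. Fibroblast-like and endothelial-like classes were filled in part by different clusters in each library, so their ratios do not compare like cells alone. Of 434 fibroblast-like barcodes in 1 cluster 433 were WT, and of 225 in another 223 were Fgd5-ko. Endothelial-like clusters held 356 WT of 363 and 92 Fgd5-ko of 94. Other clusters were mixed, 1 with 184 Fgd5-ko and 217 WT fibroblast-like barcodes. In fibroblast-like barcodes the histone sum was 364 CPM in Fgd5-ko (492 barcodes) and 219 in WT (946), a log2 ratio of 0.73 (0.64 to 0.83). That value leaned on 2 Fgd5-ko barcodes with G2/M-list genes, which held 680 of 2201 histone UMIs. Among barcodes of at least 2000 UMIs and without G2/M-list barcodes the ratio was 0.24 (0.13 to 0.35), and Hist1h1b had 12 UMIs in Fgd5-ko and 1 in WT in place of 188 and 2. Hist1h1e held up, at a log2 ratio of 2.76 in all and 2.50 (2.14 to 2.88) without them. In endothelial-like barcodes, where none of the 198 in Fgd5-ko and 957 in WT with at least 2000 UMIs was a G2/M-list barcode, the sum was 380 CPM in Fgd5-ko (204 barcodes) and 292 in WT (1175), log2 0.38 (0.25 to 0.50). There Hist1h1e was at 71.7 CPM in Fgd5-ko and 15.3 in WT (log2 2.23, 1.83 to 2.64) and Hist1h1c at 134 and 65.9 (log2 1.02). Hist1h2bc was lower in Fgd5-ko in both classes, at 40.0 against 97.7 CPM in fibroblast-like and 43.4 against 81.4 CPM in endothelial-like barcodes. Of 21 histone genes in fibroblast-like barcodes 14 were higher and 6 lower, where 17% and 14.2% of all genes were. Of 16 in endothelial-like barcodes 5 were higher and 7 lower, where 15.1% and 12.7% were. Luminal-like and pericyte-like classes had few Fgd5-ko cells, and their WT sums exceeded the 249 CPM of listed WT basal-like cells. Listed hormone-sensing luminal-like cells stood at 1999 CPM in Fgd5-ko (5 cells) and 1179 in WT (53). Outside barcodes of that class stood at 1059 and 1881 CPM (5 and 59). Listed luminal progenitor and alveolar-like cells stood at 552 and 689 CPM (13 and 112). Pericyte and vascular smooth muscle-like barcodes stood at 333 and 400 CPM (36 and 94).

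Histone genes outside the replication-dependent set differed less. The 11 genes listed as replication-independent encode histone variants. Of these, 3 were higher in Fgd5-ko, 1 was lower and 7 lay between, with a median log2 ratio of 0.32. Of all genes 26.7% were higher and 10.4% lower. Cenpa, the centromeric H3 variant, was at 75.3 CPM in Fgd5-ko and 21.5 in WT (log2 1.81), H2afz, an H2A variant found at promoters, at 805 and 513 (log2 0.65), and H1fx, a linker variant, had log2 0.66. H2afj, an H2A variant, was lower, at 115 CPM in Fgd5-ko against 193 in WT (log2 -0.75). Between both-lists and remaining cells the median of these genes was 1.41 in Fgd5-ko and 1.07 in WT, beside 5.15 and 4.42 for the replication-dependent genes. In cells of 4000 to 12000 UMIs the library ratios of Cenpa (-0.38), H1fx (-0.37) and H2afz (-0.028) had the opposite sign.

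Of 30 genes that make, process or carry histones, 14 were higher in Fgd5-ko (26.7% of all genes), 0 lower (10.4%) and 16 between, with a median log2 ratio of 0.54. Slbp, the stem-loop binding protein, was level, at 77.9 CPM in Fgd5-ko and 74.9 in WT (log2 0.06), and 0.95 and 0.71 higher on the log2 scale in both-lists than in remaining cells of Fgd5-ko and WT. The histone chaperone Asf1b was at 3.17 and 0.462 CPM (log2 2.80). Zfp473, a protein of histone pre-mRNA processing, had log2 1.81, Ubn1, of the HIRA chaperone complex, 1.57 (119 and 40.1 CPM), and Chaf1a, a subunit of the replication-coupled chromatin assembly factor, 1.41 (-0.0092 in cells of 4000 to 12000 UMIs).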

How the data were processed

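The deposited matrices hold whole-number UMI counts per gene and barcode, made with Cell Ranger 3.1.0, per the file headers; Seurat 3.0 and build mm9 are named in the submitters' processing notes with no role. The deposited table of cells gives t-SNE coordinates, a score per the file headers, and served only as the authors' list of cells. No label or header names the annotation behind the counts. Feature identifiers were matched to GENCODE M21 (31011 of 31053 genes). Promoters came from RefSeq, matched by position.

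Cells of both libraries were clustered without histone genes in scanpy 1.11.5 (2000 variable genes, 30 components, 15 neighbours, resolution 1), and a cluster was named from its markers. Barcodes outside the authors' table needed 1000 UMIs, 500 genes and a mitochondrial share of 15% or less. Counts were summed per library and cell class or state and divided by all UMIs of those cells (CPM). Intervals are exact Poisson, Clopper-Pearson or exact conditional ones (SciPy 1.17.1), at 95%, and cover counting error only. In calls, medians and plotted ratios, a count of 0 was set at 3 counts. No doublet caller was run. The ratio code was tested on simulated data. Alternatives included scaling by TMM and median-ratio factors (edgeR 4.0.16 in R 4.3.3), other cell sets, minimums and state rules.

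The named genes are Fgd5, histone genes with at least 1000 UMIs in basal-like cells, the 2 most counted and, from 100 UMIs on, the highest and lowest ratio in each class, the 4 largest ratios of the supply and the replication-independent lists, and Slbp. Members and lists were chosen with earlier results of these data known. Of 31 supply symbols, Tut7 was not matched; its older symbol Zcchc6 was used.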

Additional observations from a re-analysis of the deposited data

Results flagged for a closer look

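Hist1h2ae had a log2 ratio of Fgd5-ko over WT of 2.26 in basal-like cells and -1.88 in endothelial-like barcodes (3 UMIs in Fgd5-ko and 24 in WT), opposite directions. Hist1h4i, named after its values were seen, had 1.07 in basal-like cells, -1.69 in fibroblast-like barcodes (5 and 16 UMIs) and -1.32 in endothelial-like barcodes (7 and 38 UMIs). With 1 library per label none of these differences was tested, and each rests on few UMIs outside the basal-like class. The basal-like values also varied within that class. Hist1h2ae had 0.11 in both-lists cells, 0.17 in remaining cells and -0.77 in cells of 4000 to 12000 UMIs. Hist1h4i had 0.90 in remaining cells, -0.99 in both-lists cells and -0.80 in that UMI range. No endothelial-like barcode of at least 2000 UMIs was a G2/M-list barcode. Whether the opposite signs go with cell type, cell-cycle state or depth was not tested.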

How the results depend on the processing

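The log2 ratio of the histone sum in basal-like cells, 2.32, was 2.10 with TMM factors, 2.09 with median-ratio size factors, 2.16 over all listed cells, 2.07 with every cell thinned to 2000 UMIs, 1.69 without Hist1h1b, Hist1h1e and Hist1h3c, 0.86 without G2/M-list cells and 0.64 in cells of 4000 to 12000 UMIs. TMM and median-ratio factors shifted every gene's ratio by -0.22 and -0.23. Of 60 genes that could be called 45 were higher, where 26.7% of all genes were. These became 16 of 39 in that UMI range (23.6% of all genes) and 29 of 53 without G2/M-list cells (25.6%). The 2 lower genes stood beside 10.4% of all genes. They became 4 with either scaling, and 1 with a 2-fold limit or a minimum of 100 UMIs. In the UMI range they were 14 (10.8% of all genes), and without G2/M-list cells 7 (10.2%).

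The G2/M-list over remaining value, 4.32 in Fgd5-ko and 3.68 in WT, was 4.19 and 3.49 at 2 UMIs of a list, 4.43 and 3.84 at 5, 4.14 and 3.47 with Mki67 or Top2a alone, 3.17 and 3.30 in the UMI range, 4.90 and 4.26 for both-lists cells and 2.95 and 3.11 for the G2/M list alone. The S-list value, 0.41 and 0.48, was -0.045 and 0.0071 at 2 UMIs, 2.16 and 1.88 at 5, 1.96 and 1.84 with Mki67 or Top2a, 0.13 and 0.27 with another thinning seed, and -0.33 and 0.77 in the UMI range, and so gives no steady value. Between libraries, G2/M-list cells had 1.47, which was 0.59 in the UMI range and 0.67 for the G2/M list alone. S-list cells had 0.76, which was 1.14 at 5 UMIs and -0.39 in the UMI range. Remaining cells had 0.83, which was 0.79 at 2 UMIs and 0.71 in the UMI range. The fibroblast-like ratio of 0.73 was 0.24 without G2/M-list barcodes.

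Of 36 named genes, 7 that passed 1.5-fold had the opposite sign in the UMI range: Cenpa (-0.38), Chaf1a (-0.0092), H1fx (-0.37), H2afz (-0.028), Hist1h2ae (-0.77), Hist1h2ap (-1.22) and Hist1h3d (-1.20). Without G2/M-list cells Hist1h2ap had -0.43. Of named genes under 1.5-fold, Hist1h4h (0.29) had -0.59 in the UMI range and -0.79 without G2/M-list cells, and Slbp (0.06) had -0.16 with TMM factors, -0.18 with median-ratio factors and -0.019 without G2/M-list cells. The cause of these differences was not tested. The splits by list, the sum without 3 genes and the sets without G2/M-list cells or barcodes were chosen after seeing the data. The WT both-lists values rest on 41 cells. No paired analysis was possible because there is 1 library per group.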
